A study of Mus musculus with 15 samples.

Results

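Pf4, Ppbp, Vwf, Itga2b, Itgb3, Gp1bb, Gp9, Treml1 and Rab27b are 9 genes of the megakaryocyte, the marrow cell that sheds platelets, and their RNA was followed here in LSK cells. LSK cells lack the markers of mature blood lineages and carry Sca-1 and c-Kit, and they include haematopoietic stem cells and multipotent progenitors. The 9 genes were found by matching the Ensembl identifiers of the raw count table to mouse gene symbols. The table held 45232 identifiers, of which 44585 had a symbol, and 17834 genes passed the filter on low counts. All 9 megakaryocyte genes passed it.

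Megakaryocytes arise from stem cells through committed progenitors, and a share of stem cells already carries platelet transcripts such as Vwf and Itga2b. Cytokine signals that drive the lineage pass through the kinase JAK2, and its genes are switched on by transcription factors that include GATA1, FOG1, FLI1, RUNX1, GFI1B and NF-E2. The V617F change leaves JAK2 active without cytokine and is common in patients whose marrow makes too many red cells or platelets.

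The data were bulk RNA-seq of CD45.2+ LSK cells from bone marrow of C57BL/6 mice (C57BL/6J in the methods), with 3 libraries in each of 5 groups. In 4 groups the sorted cells carried the Idh2 R140Q and Jak2 V617F alleles, which Mx1-Cre switches on in haematopoietic cells and in some other tissues after polyI:polyC. Per the study's methods these cells came from marrow that had been mixed with an equal number of CD45.1 WT cells and transplanted into lethally irradiated CD45.1 recipients, so that competitor and host blood cells were kept out by the CD45.2 gate. The recipients received vehicle, AG221 (an inhibitor of mutant IDH2) at 40 mg/kg, ruxolitinib (an inhibitor of JAK1 and JAK2) at 60 mg/kg, or both drugs at these doses, termed combined below. Dosing was by gavage 2 times a day for 21 to 28 days, and the last dose came about 1.5 hours before sacrifice. The fifth group was WT LSK cells with no drug named in the labels. For its experiments in general the methods give mice of both sexes between 6 months and 1.5 years old. The labels do not tie libraries to animals, while the study's text counts as many treated mice per group as there are libraries here. The p-values measure the spread between these libraries, which may be technical where libraries were not separate mice.

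Total counts ran from 18836625 to 32174287 per library with a median of 25545779. Kit was abundant in all 15 libraries, between 740.0 and 1550.0 CPM (counts scaled to a common library size with TMM factors), while Ly6a, which encodes Sca-1, was at 13.1 CPM in vehicle library A4 against 42.9 to 166 CPM in the others. WT libraries stood apart in 3 ways that cannot be told apart from genotype. The Y-linked genes Ddx3y, Uty, Kdm5d and Eif2s3y were at no more than 3 counts in each WT library and were expressed in all others, 11 markers of B and plasma cells summed to between 3570.0 and 11100.0 CPM in WT against at most 804 CPM elsewhere, and 29782 to 34487 genes had a count in WT against 21369 to 26329. The AG221 libraries A8 and A10 and the ruxolitinib library A16 under-represented GC-rich genes. The difference between genes of at least 55% GC and genes of at most 44% GC, as deviation from the mean of all libraries, was -0.81, -0.53 and -0.27 log2 units there and between -0.09 and 0.29 in all others.

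The library names also split the groups by a letter whose meaning was not given, A for vehicle, AG221 and ruxolitinib and B for combined treatment and WT. The 13 immediate early genes, which respond within minutes to stimulation, summed to between 4150.0 and 15100.0 CPM in the A libraries and between 748 and 1310.0 CPM in the B libraries. Whatever the letters stand for cannot be told apart from genotype in vehicle, AG221 or ruxolitinib against WT, or from treatment in combined against vehicle, AG221 or ruxolitinib and in the test of non-additivity. AG221 and ruxolitinib against vehicle and combined treatment against WT were compared within a letter.

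By level per kilobase of exon, Pf4 was the most abundant of the 9 genes in every group, at 73.5 CPM per kb in WT and 197 in vehicle. Itga2b followed with 28.8 and 108 CPM per kb. Gp1bb had the lowest value in every group, at 0.286 CPM per kb in WT and 0.173 in vehicle. Its rank is uncertain, since 92.9% of its exonic bases lie in exons of other gene models on the same strand. The methods name STAR for the counting and do not say how it treated reads there. The remaining 6 genes lay between 3.11 and 14.9 CPM per kb in WT. The summed CPM of the 9 genes was 323 to 435 in WT and 1040.0 to 1140.0 in vehicle. It was 396 to 677 with AG221, 794 to 884 with ruxolitinib and 599 to 1130.0 with combined treatment. The WT range lay below those of vehicle, ruxolitinib and combined treatment and overlapped that of AG221. In bulk RNA, fewer cells of a type and less RNA per cell cannot be told apart.

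**Figure D1:**
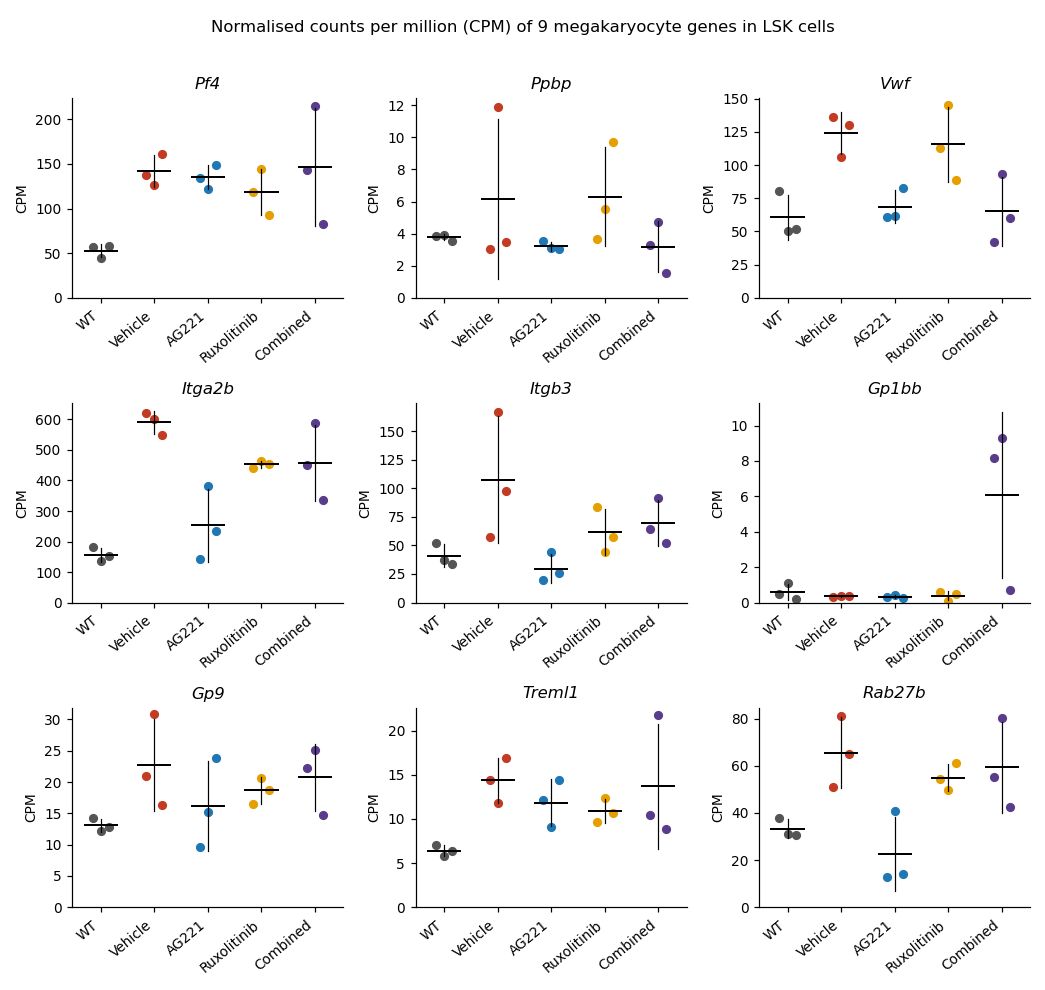
CPM (linear axis from 0) of each of the 9 genes in the 5 groups. Each point is 1 library, the horizontal bar is the mean of 3 libraries and the vertical line is ± 1 SD. Itga2b lay at 549 to 622 CPM in vehicle against 137 to 182 in WT, and Gp1bb was above 1.08 CPM in 2 combined libraries only.

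On GRCm38 (GENCODE M21) the granule genes Pf4 (ENSMUSG00000029373) and Ppbp (ENSMUSG00000029372) lie at chr5:90772435-90773383 (+) and chr5:90768518-90770063 (+), and Vwf (ENSMUSG00000001930) at chr6:125546774-125686679 (+). The receptor genes are Itga2b (ENSMUSG00000034664) at chr11:102453297-102470122 (-), Itgb3 (ENSMUSG00000020689) at chr11:104608000-104670476 (+), Gp1bb (ENSMUSG00000050761) at chr16:18620317-18622403 (-), Gp9 (ENSMUSG00000030054) at chr6:87778072-87779768 (+) and Treml1 (ENSMUSG00000023993) at chr17:48359916-48367176 (+). Rab27b is ENSMUSG00000024511. The exon lengths used for the levels per kilobase ran from 721 bases for Pf4 to 16064 bases for Vwf.

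Promoters are shown for 4 of the genes so that their sequences can be read beside the expression values, and no relation between motif and expression was tested. Pf4 and Ppbp are neighbours that behaved differently, Pf4 and Treml1 are the pair most alike, and Itga2b had the largest rise of the 9 in vehicle against WT. The RefSeq promoter table (GRCm38.p6), which runs from 250 bases before to 50 bases after each start site, held 6 of the 9 genes, namely Pf4, Ppbp, Itga2b, Gp1bb, Gp9 and Treml1. The windows are Pf4 at chr5:90772185-90772484 (+), Ppbp at chr5:90768268-90768567 (+), Itga2b at chr11:102469834-102470133 (-) and Treml1 at chr17:48359666-48359965 (+), each printed 5′ to 3′ on the gene's strand with matches to the motifs below in capitals.
Pf4: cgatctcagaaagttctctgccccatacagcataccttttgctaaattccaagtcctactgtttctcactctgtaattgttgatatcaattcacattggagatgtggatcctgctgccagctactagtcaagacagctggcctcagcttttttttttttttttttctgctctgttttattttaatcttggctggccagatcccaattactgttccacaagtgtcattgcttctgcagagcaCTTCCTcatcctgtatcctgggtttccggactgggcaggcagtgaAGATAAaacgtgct
Ppbp: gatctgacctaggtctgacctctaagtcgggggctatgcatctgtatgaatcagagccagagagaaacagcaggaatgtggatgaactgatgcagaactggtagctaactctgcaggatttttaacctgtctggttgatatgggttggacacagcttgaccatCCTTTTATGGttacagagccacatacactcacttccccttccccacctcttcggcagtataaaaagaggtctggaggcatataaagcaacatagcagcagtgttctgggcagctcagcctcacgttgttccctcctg
Itga2b: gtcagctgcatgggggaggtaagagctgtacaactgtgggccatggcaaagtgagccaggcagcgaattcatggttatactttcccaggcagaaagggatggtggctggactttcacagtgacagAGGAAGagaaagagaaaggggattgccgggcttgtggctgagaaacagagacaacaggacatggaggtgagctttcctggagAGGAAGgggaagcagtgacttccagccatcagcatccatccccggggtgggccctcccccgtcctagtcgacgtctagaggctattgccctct
Treml1: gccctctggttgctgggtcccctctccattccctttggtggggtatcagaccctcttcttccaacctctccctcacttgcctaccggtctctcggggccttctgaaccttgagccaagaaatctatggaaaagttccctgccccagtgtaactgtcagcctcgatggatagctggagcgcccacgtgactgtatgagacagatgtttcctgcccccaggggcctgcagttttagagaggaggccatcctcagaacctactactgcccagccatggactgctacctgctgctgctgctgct

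Motifs were searched on both strands, as GATA (A or T, then GATA, then A or G), ETS (A or C, then GGAAG), RUNX (TGTGGT) and the SRF CArG box. The Pf4 window held a GATA match at position 36 and an ETS match at -9, counted from the start site. The Ppbp window held neither but had a CArG box at -87, a match found in 1.63% of 32851 mouse promoters of this length. Itga2b held ETS matches at -125 and -43, and Treml1 held none of the 4 motifs. Over the 6 promoters, GATA was matched in 2, ETS in 4, RUNX in 1 and the CArG box in 1, where 29.8%, 46.5%, 16.8% and 1.63% of all promoters hold them. No match overlapped another.

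The comparison of vehicle with WT set mutant cells from transplanted, vehicle-dosed recipients against WT cells, for which no transplant or dosing is named. The WT library titles share a prefix of unstated meaning with the other titles, so whether WT cells were transplanted is unknown. If WT cells were neither transplanted nor dosed, transplantation and dosing cannot be told apart from the 2 mutations. In this comparison 5 of the 9 genes passed the test, all of them higher in vehicle. Itga2b, Pf4, Itgb3, Treml1 and Vwf rose by between 2.04-fold and 3.77-fold. Over all genes tested 33.3% were called in this comparison and 15.4% were called higher. The median log2 fold change of the 9 genes was 1.03, beside -0.09 over all genes tested. In 7 of the 9 genes every vehicle library exceeded every WT library, which was so for 25.6% of all genes.

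Pf4 encodes platelet factor 4, a chemokine of the platelet alpha granule. It stood at 56.7, 44.6 and 57.6 CPM in WT libraries B28, B30 and B31 and at 138, 126 and 161 CPM in vehicle libraries A1, A3 and A4. Every vehicle library was above every WT library. The log2 fold change was 1.42 (SE 0.275, adjusted p = 0.00457).

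Ppbp, which encodes the granule chemokine CXCL7, lies 2371 bases from Pf4 on the same strand and did not follow it. WT libraries held 3.85, 3.94 and 3.55 CPM, and vehicle libraries 3.05, 11.9 and 3.47 CPM. The groups overlapped, and library A3 alone was high. The log2 fold change was 0.70 (SE 0.509, adjusted p = 0.296), and it was -0.19 without A3. Over the 15 libraries Pearson's r between Pf4 and Ppbp in log2 CPM was 0.09, a description over libraries that share depth and treatment. Among 5 other CXC chemokine genes of this cluster 3 were tested and 1 was called, higher in vehicle, where 33.3% of all genes were called. The median log2 fold change of those tested was -0.33. Cxcl2, a neutrophil attractant among the 5, was at no more than 0.303 CPM in WT and at 43 to 92.1 CPM in vehicle.

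Vwf encodes von Willebrand factor, the adhesive protein that tethers platelets to a damaged vessel wall. WT libraries held 80.4, 50.2 and 51.5 CPM and vehicle libraries 136, 106 and 130.0 CPM. The vehicle libraries were all higher, with a log2 fold change of 1.03 (SE 0.282, adjusted p = 0.0167). Endothelial cells also make Vwf, and of 10 endothelial markers 8 were tested and 1 was called, lower in vehicle. The 10 markers summed to 240.0 to 332 CPM in vehicle and 256 to 329 CPM in WT, ranges that overlap. The part of endothelial cells in the Vwf values was not tested.

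Itga2b and Itgb3 encode the alpha and beta chains of the platelet fibrinogen receptor, and Itga2b is also known as CD41. Itga2b stood at 182, 137 and 151 CPM in WT and at 622, 603 and 549 CPM in vehicle. The groups lay far apart, and its log2 fold change of 1.92 (SE 0.284, adjusted p = 0.00107) was the largest of the 9. Itgb3 stood at 52.3, 37.3 and 33.8 CPM in WT and at 57.4, 167 and 97.9 CPM in vehicle. Its vehicle libraries were spread almost 3-fold, with A1 close to the WT range, and the log2 fold change was 1.38 (SE 0.398, adjusted p = 0.0201). It was 0.94 without A3 (adjusted p = 0.0752), and the call was also lost without WT library B30 or B31. Itgav, whose product also pairs with the beta chain, fell by 1.20 on the log2 scale (adjusted p = 0.00609).

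Treml1, which encodes a receptor of the granule membrane that moves to the platelet surface on activation, stood at 7.04, 5.76 and 6.37 CPM in WT and at 14.4, 11.8 and 16.9 CPM in vehicle. Its log2 fold change was 1.17 (SE 0.306, adjusted p = 0.014). Without WT library B30 neither Treml1 nor Vwf nor Itgb3 was called, and 2 of the 9 genes remained.

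Gp9 and Gp1bb encode 2 chains of the GPIb-IX-V complex, the platelet receptor for von Willebrand factor. Gp9 stood at 14.3, 12.2 and 12.8 CPM in WT and at 21, 30.8 and 16.3 CPM in vehicle. The groups did not overlap, with a log2 fold change of 0.79 (SE 0.313) that missed the threshold (adjusted p = 0.0653). Gp1bb had 14, 32 and 6 counts in WT and 9, 11 and 10 counts in vehicle, and no difference was detectable at this depth (log2 fold change -0.72, SE 0.841, adjusted p = 0.525). Its counts are uncertain in another way, since 92.9% of its exonic bases lie in exons of the longer Sept5 gene model or its read-through Gm49601 on the same strand. Gp1ba, the chain that binds von Willebrand factor, rose by a log2 fold change of 1.35 (adjusted p = 0.00549). Gp5, the remaining chain, did not rise with it. It stood at 4.93, 6.74 and 2.95 CPM in WT and at 2.37, 3.19 and 3.83 CPM in vehicle, ranges that overlap.

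Rab27b encodes a small GTPase that docks platelet granules for release. It stood at 37.9, 31.2 and 30.6 CPM in WT and at 50.9, 80.9 and 64.9 CPM in vehicle, with all vehicle libraries higher. The log2 fold change of 0.98 (SE 0.374) missed the threshold (adjusted p = 0.0582). Its paralog Rab27a rose by a log2 fold change of 0.77 (adjusted p = 0.0063).

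**Figure D2:**
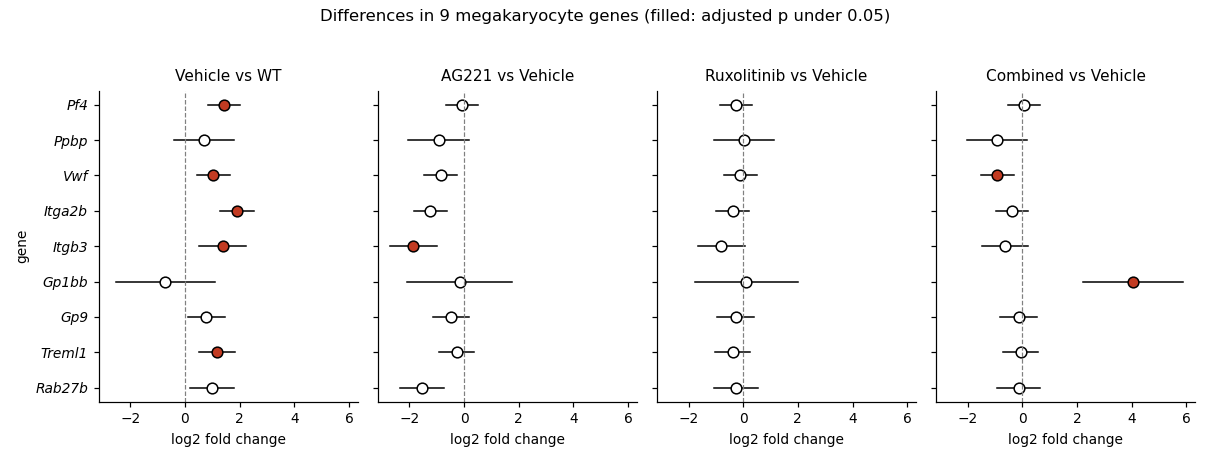
Log2 fold change of the 9 genes with 95% intervals from edgeR in 4 comparisons. Filled points have an adjusted p under 0.05. In vehicle against WT 5 points are filled, and with ruxolitinib against vehicle none is.

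Beyond the 9 genes, lists of other platelet and megakaryocyte genes held 84 genes, of which 83 were tested, and 21 of them were higher and 11 lower in vehicle than in WT. This is 38.6% of them, beside 33.3% of all genes called. The median log2 fold change was 0.13. The genes called higher with the smallest adjusted p were Selp (P-selectin, 2.11), Tuba8 (1.90), Srgn (serglycin, the granule proteoglycan, 0.90), F2rl2 (a thrombin receptor, 1.85) and Cd9 (0.92). Those called lower were Hlf (a stem cell transcription factor, -2.22), Prkcq (-0.70), Thbs1 (thrombospondin, -2.69), Ldb1 (a cofactor of GATA1 and TAL1, -1.04) and Jam3 (-1.72). Exons of Selp, Tuba8, Cd9 and Jam3 overlap antisense models, and strand use in the counting was not stated.

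Of 16 transcription factors of the lineage, 3 were higher and 2 lower in vehicle, which is 31.2% and close to the 33.3% of all genes called. Gata1 stood at 32.7 to 40.2 CPM in WT and at 99.2 to 188 CPM in vehicle, a log2 fold change of 1.89 (SE 0.38, adjusted p = 0.00531). Gfi1b rose by 0.95 (adjusted p = 0.0272) and Fli1 by 0.41 (adjusted p = 0.0312). Nfe2 (0.08), Tal1 (-0.05), Runx1 (-0.52), Zfpm1, which encodes FOG1 (-0.43), and Meis1 (-0.12) did not pass the test.

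Markers of other cells moved in the same comparison, and their part in the results was not tested. Of 15 erythroid markers, 6 were higher in vehicle, with a summed level of 2340.0 to 3720.0 CPM against 1820.0 to 1990.0 CPM in WT. Of 9 mast cell and basophil markers tested, 6 were higher, and of 12 neutrophil markers 5 were higher. Of 13 immediate early genes 11 were higher, with summed levels of 7050.0 to 15100.0 CPM against 816 to 1140.0 CPM. Of 11 LSK markers, 2 were higher and 3 lower. These counts stand beside 33.3% of all genes called and 15.4% called higher.

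AG221 was compared with vehicle to see what inhibition of mutant IDH2 alone does. All 9 log2 fold changes were below 0, and 1 of the 9 genes, Itgb3, passed the test, where 0.987% of all genes were called and 0.516% were called lower. The median was -0.86, beside -0.01 over all genes. In 4 genes, Itga2b, Itgb3, Rab27b and Vwf, every AG221 library was below every vehicle library, which was so for 7.26% of all genes. Of the 83 other platelet and megakaryocyte genes tested 1 was called, lower with AG221, which is 1.2% and close to the 0.987% of all genes. Their median log2 fold change was -0.34. Under upper quartile scaling, which moved the median of all genes from -0.01 to 0.18, Pf4 and Gp1bb turned to 0.13 and 0.016, and with GC offsets Gp1bb, Gp9 and Treml1 turned to 0.65, 0.011 and 0.085. Neutrophil markers summed to 17400.0 to 20500.0 CPM with AG221 against 7850.0 to 12800.0 CPM in vehicle, and 1 of 12 was called. Sums of erythroid, mast cell and basophil, B and plasma cell and endothelial markers overlapped, while those of monocyte and dendritic and of T and NK cell markers were also higher. Their part in these values was not tested.

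Itgb3 stood at 19.4, 44.3 and 25.5 CPM in AG221 libraries A8, A9 and A10, below the vehicle minimum of 57.4 CPM. It fell by 1.85 on the log2 scale (SE 0.404, 95% interval -2.72 to -0.98, adjusted p = 0.0489). Over 14 alternative settings the log2 fold change ran from -2.26 to -1.30 and 7 called it, with adjusted p from 0.000507 to 0.549. The call was lost without any 1 of the vehicle libraries A1, A3 and A4, and without A8 or A10.

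Itga2b stood at 144, 381 and 233 CPM with AG221, so that A8 lay within the WT range and A9 and A10 above it. The log2 fold change was -1.23 (SE 0.279, adjusted p = 0.0537). Rab27b stood at 13, 40.9 and 13.9 CPM, with A8 and A10 below every WT library, and its log2 fold change was -1.54 (SE 0.38, adjusted p = 0.0611). Vwf stood at 61.2, 61.5 and 82.8 CPM, with a log2 fold change of -0.86 (SE 0.281, adjusted p = 0.10). The low-GC libraries A8 and A10 were the lower ones for Itga2b, Itgb3 and Rab27b, whose exons hold 58.2%, 51.7% and 40.1% GC. With GC offsets the log2 fold changes were -0.89 for Itga2b, -1.80 for Itgb3, -1.53 for Rab27b and -0.74 for Vwf. Itgb3 alone among them passed the test in edgeR (adjusted p = 0.0376). The part of the GC trend in these values was not tested beyond the settings given. Without A8, A10 and A16 the log2 fold changes rested on A9 as the only AG221 library and were -0.65 for Itga2b, -1.30 for Itgb3, -0.71 for Rab27b and -1.03 for Vwf, and none passed the test. Without A9 instead, Itga2b (-1.66), Itgb3 (-2.26) and Rab27b (-2.30) all passed it.

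**Figure D3:**
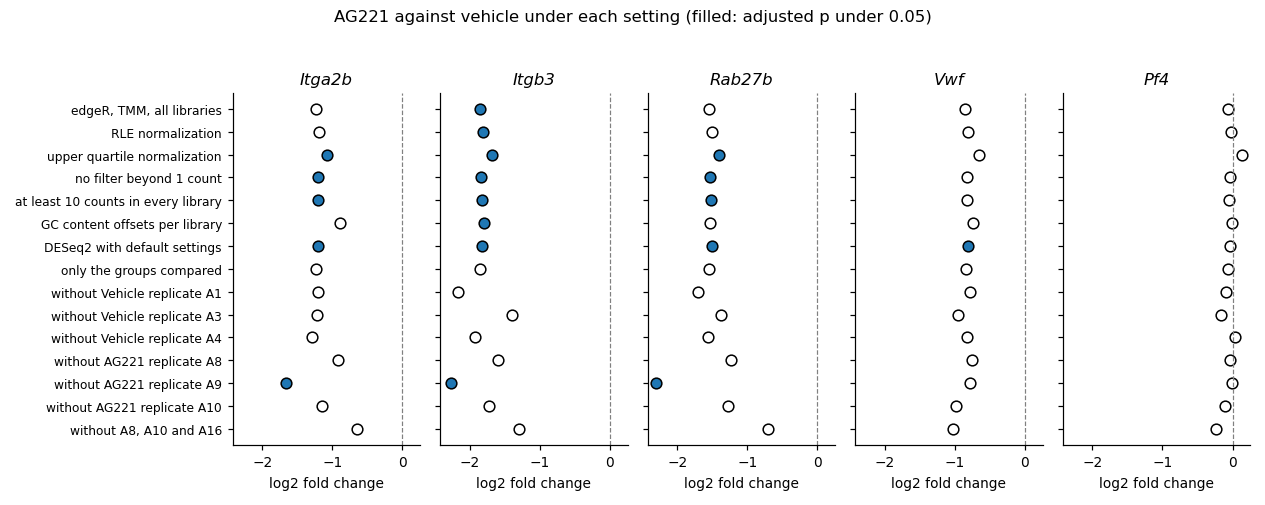
Log2 fold change of 5 genes with AG221 against vehicle (x axis) under the reported fit and 14 alternative settings (rows). Filled points have an adjusted p under 0.05. Itgb3 ran from -2.26 to -1.30 and Rab27b from -2.30 to -0.71, while Pf4 stayed between -0.24 and 0.13.

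Pf4, Treml1, Gp9, Ppbp and Gp1bb did not pass the test. Pf4 stood at 134, 122 and 149 CPM with AG221, overlapping the vehicle libraries, with a log2 fold change of -0.07 and a 95% interval of -0.65 to 0.51. Against WT, where 50.7% of all genes were called and 22.2% were called higher, Pf4 (1.35, adjusted p = 0.00199) and Treml1 (0.89, adjusted p = 0.0264) were higher with AG221 and were the 2 genes of the 9 called. Treml1 was not called without A8 (0.0614), A10 (0.0962), B30 (0.0865) or B31 (0.0588), where the adjusted p is given for each. Without A8, A10 and A16 neither Pf4 (1.19, adjusted p = 0.0603) nor Treml1 (0.49, adjusted p = 0.418) was called. Itga2b was at 0.69 (adjusted p = 0.0517), and over 14 alternative settings it ran from 0.28 to 1.29 and was called in 7, among them the one without A8, A10 and A16 (1.27, adjusted p = 0.0143). Vwf was at 0.17 (adjusted p = 0.62). Vehicle and AG221 share the WT libraries in these comparisons.

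Ruxolitinib against vehicle asked the same of JAK inhibition. None of the 9 genes passed the test in edgeR, 0 had an unadjusted p under 0.05, where 4.56% of all genes did, and DESeq2 called 0 of the 9, and edgeR called 3 of all genes tested, which is 0.0168%. The median log2 fold change was -0.26. Itga2b stood at 441, 463 and 455 CPM in libraries A14, A16 and A17, each below the vehicle minimum of 549 CPM as in 4.50% of all genes, with a log2 fold change of -0.39 and a 95% interval of -0.98 to 0.21. Pf4 stood at 118, 144 and 92.6 CPM and Vwf at 113, 145 and 88.9 CPM. The intervals of these 2 genes, -0.84 to 0.32 and -0.70 to 0.50, leave room for a change of either sign.

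Against WT, Itga2b (1.53, adjusted p = 0.00348), Pf4 (1.16, adjusted p = 0.00982) and Vwf (0.93, adjusted p = 0.0251) were higher with ruxolitinib, 3 of the 9 genes, where 32.3% of all genes were called and 16.1% were called higher. Vwf was not called without A16, B30 or B31 (adjusted p from 0.0703 to 0.106), and Pf4 not without B30 (adjusted p = 0.0518). Erythroid markers were higher than in WT for 12 of 15 genes, and library A16 held 609 CPM of the globin gene Hbb-bs against 53.2 and 55.4 CPM in the other ruxolitinib libraries.

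Combined treatment against vehicle asked what both inhibitors do together, and 2 of the 9 genes passed the test, Gp1bb higher and Vwf lower, where 12.5% of all genes were called. The median log2 fold change was -0.14, beside 0.04 over all genes. Vwf stood at 42.1, 93.3 and 60.2 CPM in libraries B24, B25 and B26, each below the vehicle minimum of 106 CPM. It fell by 0.93 on the log2 scale (SE 0.281, adjusted p = 0.0458), and the call was lost without any 1 of the vehicle libraries or without B24 or B26, where the adjusted p ran up to 0.192.

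Gp1bb had 157, 269 and 15 counts in the combined libraries, against 9 to 11 in vehicle. The rise was carried by B24 and B25, at 8.19 and 9.30 CPM, while B26 at 0.694 CPM was within the WT range. The log2 fold change was 4.05 (SE 0.852, adjusted p = 0.0079), and it was 3.28 with GC offsets (adjusted p = 0.0095). Gp1bb has a GC content above that of 99.3% of the genes tested, and the GC trend was 0.18 to 0.29 in the combined libraries and 0.25 in ruxolitinib library A14. Sept5, a gene model that covers it, held 0.574, 0.795 and 0.324 CPM in B24, B25 and B26, beside 0.276 to 0.861 CPM in vehicle. The methods name STAR's own gene counting and do not say how reads in shared exons were assigned. The part of the overlapping models in the Gp1bb counts was not tested.

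The other chains of the receptor did not move alike. Gp5 stood at 38.9, 54.9 and 7.31 CPM in combined libraries and at 2.37, 3.19 and 3.83 CPM in vehicle, with the same B24 and B25 high, and rose by a log2 fold change of 3.43 (SE 0.643, adjusted p = 0.0048). Gp1ba (0.24, adjusted p = 0.631) and Gp9 (-0.13, adjusted p = 0.846) did not pass the test. Gp9 stood at 22.3, 25.2 and 14.8 CPM and overlapped the vehicle libraries.

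**Figure D4:**
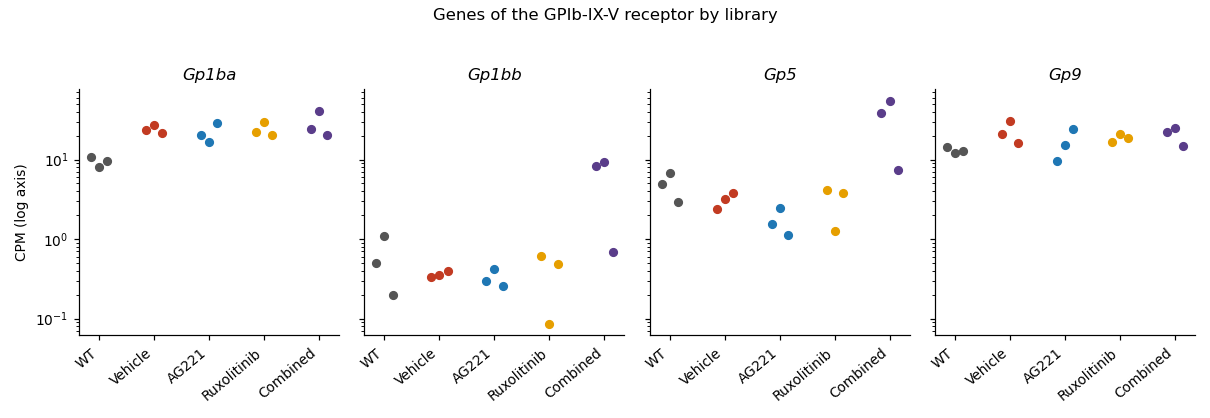
CPM (log axis) of the 4 genes of the GPIb-IX-V receptor, each point 1 library. Gp1bb and Gp5 are high in B24 and B25, at 8.19 and 9.30 CPM and at 38.9 and 54.9 CPM, and the third combined library is lower.

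Pf4 stood at 143, 215 and 82.5 CPM with combined treatment, a log2 fold change of 0.05 and a 95% interval of -0.53 to 0.63. Itga2b stood at 450.0, 587 and 336 CPM (-0.37, adjusted p = 0.433), Itgb3 at 64, 91.5 and 52.2 CPM (-0.63, adjusted p = 0.337), Treml1 at 10.5, 21.8 and 8.83 CPM (-0.06) and Rab27b at 55.2, 80.3 and 42.5 CPM (-0.14). In each of these 5 genes B25 was the highest and B26 the lowest combined library. Ppbp followed the same order, at 3.29, 4.73 and 1.57 CPM.

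Compared with WT, combined treatment had 3 of the 9 genes higher, where 3.25% of all genes were called and 1.63% were called higher. These were Itga2b (1.54, SE 0.281, adjusted p = 0.0137), Pf4 (1.47, SE 0.275, adjusted p = 0.0156) and Gp1bb (3.34, SE 0.81, adjusted p = 0.0422). Gp1bb had not been called in vehicle against WT (-0.72), and its combined and WT libraries overlapped. Gp1ba was also higher (1.58, adjusted p = 0.0115). Itga2b was called in 11 of 13 alternative settings, Pf4 in 10 of 13 and Gp1bb in 6 of 12. Without combined library B25 or WT library B30 none of the 3 was called (adjusted p from 0.0655 to 0.163), and without B28 Itga2b alone was. The median of the 9 genes was 0.84, beside 0.04 over all genes. Of the 83 other platelet and megakaryocyte genes tested, 9 were higher and 3 lower than in WT, which is 14.5% beside 3.25% of all genes. The 13 immediate early genes summed to 748 to 1310.0 CPM with combined treatment and 816 to 1140.0 CPM in WT, ranges that overlap.

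Of the 83 other platelet and megakaryocyte genes, 7 were higher and 4 lower with combined treatment than with vehicle, which is 13.3% and close to the 12.5% of all genes called. Ldb1 (1.54), Gp5 (3.43), Gnaz, a G protein subunit of platelets (1.99), Zfpm1 (1.92) and P2ry1, an ADP receptor (1.49), led the genes called higher. F5, coagulation factor V (-2.04), Myh9, non-muscle myosin (-1.14), Flna, filamin (-0.87), and Srgn (-0.47) were the 4 called lower, and all 4 had been higher in vehicle than in WT. Tal1 (0.89, adjusted p = 0.0249) and Itgav (1.51, adjusted p = 0.00314) also rose, and Rab27a fell by 0.67 on the log2 scale (adjusted p = 0.0164), whereas Gata1 was at 0.04 (adjusted p = 0.957). Both comparisons share the vehicle libraries. Cxcl2 was at 0.0522 to 0.38 CPM with combined treatment, and 10 of 13 immediate early genes were lower than in vehicle.

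Directly compared with AG221, combined treatment had 4 of the 9 genes higher, where 33.2% of all genes were called and 18.9% were called higher. These were Gp1bb (4.21, adjusted p = 0.00432), Rab27b (1.40, adjusted p = 0.0141), Itga2b (0.86, adjusted p = 0.0302) and Itgb3 (1.22, adjusted p = 0.0314). Without A8, A10 and A16 none of the 4 was called, with Gp1bb at 3.81 (adjusted p = 0.164), Rab27b at 0.52 (0.473), Itga2b at 0.25 (0.673) and Itgb3 at 0.63 (0.585). Itga2b was also at 0.22 and not called with GC offsets. Without A8, A10 or B25, Gp1bb was the 1 gene called, with adjusted p for Rab27b, Itga2b and Itgb3 between 0.0623 and 0.139. Compared with ruxolitinib, Gp1bb was the 1 gene called (3.93, adjusted p = 0.00854), where 12.4% of all genes were called.

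The test of departure from the sum of both single treatments called Itgb3 only. AG221 and ruxolitinib alone gave log2 fold changes of -1.85 and -0.80 against vehicle and both drugs together -0.63. The departure was 2.02 (SE 0.558, adjusted p = 0.0452 in edgeR's quasi-likelihood test). Itgb3 was the 1 gene of the 9 called, which is close to the 8.42% of all genes called. Rab27b (1.65, adjusted p = 0.062), Itga2b (1.24, adjusted p = 0.0596) and Gp1bb (4.09, adjusted p = 0.053) did not pass. The Itgb3 call was lost in 10 of 20 alternative settings.

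Across the 15 libraries the 9 genes did not form a single block. These correlations are descriptions over libraries that share treatment, depth and GC trend. Pf4 and Treml1 were the most alike pair (Pearson's r = 0.93 in log2 CPM), followed by Itgb3 and Rab27b (r = 0.91). Itga2b was closest to the mean of the other 8 genes (r = 0.84) and Gp1bb the farthest (r = 0.21). With group means removed Itga2b was still the closest (r = 0.65), and the farthest was Vwf (r = 0.17), with Gp1bb at 0.49.

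**Figure D5:**
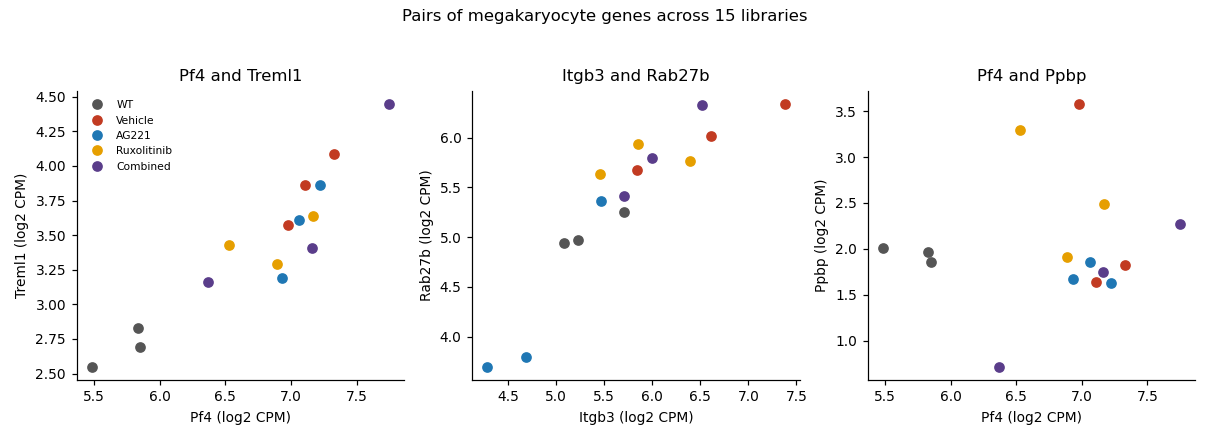
Log2 CPM of 3 pairs of genes, each point 1 of 15 libraries coloured by group. Pf4 and Treml1 (r = 0.93) and Itgb3 and Rab27b (r = 0.91) rise together, and Pf4 and Ppbp (r = 0.09), which lie 2371 bases apart, do not.

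Among all genes tested, those most like the mean of the 9 over the 15 libraries were Ache (r = 0.928), which encodes acetylcholinesterase and lies in one locus with Mir8116 (r = 0.894) and Ufsp1 (r = 0.855), and F2r (r = 0.914), the thrombin receptor PAR1. The rest of the leading 10 were Emilin2, Rab40b, Tjp1, Serpine2, Thbd and Slc18a2, down to r = 0.841. Mir8116 lies within the Ache gene model on the same strand, and its counts cannot be told apart from those of Ache. Pf4 was most like Cd9 (r = 0.939), Tuba8, Mfsd2b, Treml1 and Icam4. Itga2b was most like Ache (r = 0.969), F2r, Zfp385a, Mir8116 and Tnfaip8l1, and Vwf most like Pak6 (r = 0.934), Vps8, Hk1, Haus6 and Tango6. With group means removed, the r of Ache with Itga2b was 0.943 and that of Cd9 with Pf4 was 0.775, and many of the likenesses were lower. The leading 10 then ranked between 21 (Tjp1) and 1021 (Emilin2) among all genes for likeness to the mean of the 9, and the genes most like Vwf between 3 (Pak6) and 753 (Tango6).

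The order of the group means differed between the genes. Vehicle was highest for Vwf, Itga2b, Itgb3, Gp9, Treml1 and Rab27b, combined treatment for Pf4 and Gp1bb, and ruxolitinib for Ppbp. WT was lowest for Pf4, Vwf, Itga2b, Gp9 and Treml1, AG221 for Itgb3, Rab27b and Gp1bb, and combined treatment for Ppbp. In that order the libraries of neighbouring groups did not overlap between ruxolitinib and WT for Pf4, Treml1 and Rab27b and between ruxolitinib and AG221 for Vwf and Itga2b. For Ppbp, WT and AG221 met at 3.55 CPM. All other neighbours overlapped.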

How the data were processed

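RNA from sorted LSK cells was amplified with SMARTer and sequenced as 50-base read pairs, which per the submitters' processing notes and methods were aligned by STAR 2.5.1a to mm10 and counted per gene against an Ensembl model. The authors deposited raw counts per gene and library, and a second table of values normalized with DESeq2 1.6.3 was not used here. The strand setting and the Ensembl release were not given in the sources used here. SMARTer amplification without molecular identifiers counts reads, not molecules, and unequal recovery of GC-rich sequence shifts levels between libraries, so GC offsets were tried as an alternative.

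All 15 libraries in 5 groups were fitted together in edgeR 4.0.16 (R 4.3.3) with TMM factors, filterByExpr, a quasi-likelihood test and Benjamini-Hochberg adjustment over 17834 genes at 0.05, with a common coefficient of variation of 0.313. Levels are CPM on TMM-scaled library sizes, log2 CPM used a prior count of 2, and 95% intervals used the t distribution of the fit. Non-additivity was tested as combined minus AG221 minus ruxolitinib plus vehicle. Alternatives were DESeq2 1.42.0, RLE and upper quartile scaling, a filter of 1 count in total or of 10 or more counts in each library, GC offsets, separate fits for the compared groups, and omission of each library in turn. Leaving out A8, A10 and A16 together was chosen after seeing the data. The code was tested on simulated data.

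The 9 genes and all gene lists were chosen with earlier results of these data known. Named were the 9 genes, fixed regulators and receptor partners, the 5 list genes of smallest adjusted p in each direction for vehicle against WT and combined against vehicle, and the genes most like the mean of the 9 (10) and like Pf4, Itga2b and Vwf (5 each). Coordinates are from GENCODE M21 (GRCm38). No pair of libraries of a group agreed within sampling noise (chi-square per degree of freedom from 15.0 to 175.0). One gene of the lists is not reported here.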

Additional observations from a re-analysis of the deposited data

Results flagged for a closer look

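Itgb3 was singled out because the effect of both drugs together differed from the sum of the single effects by a test of that difference. The departure was 2.02 log2 units (SE 0.558, 95% interval 0.82 to 3.22, adjusted p = 0.0452 in edgeR). Over 20 alternative settings it ran from 1.24 to 2.43, 10 of them called it, and the adjusted p ran from 0.00595 to 0.54. It was not called without A8, A10 and A16, where AG221 is left with A9 alone, nor without any 1 of A3, A4, A8, A10, A16, A17, B24 and B25. Groups of 3 libraries were not tested for single outlying libraries. The combined libraries carry the letter B and all others in this test the letter A, so the letter cannot be told apart from treatment.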

How the results depend on the processing

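No paired analysis was possible because the library names carry no replicate number shared between groups. Vehicle against WT had 5 of the 9 genes called, and also 5 under upper quartile scaling or with at least 10 counts in every library. RLE scaling gave 6, adding Rab27b. DESeq2, GC offsets, no filter and a fit of only its groups gave 7 each, adding Gp9 and Rab27b. The number of the 9 genes called in AG221 against vehicle was 1, and it was 3 under upper quartile scaling, without a filter or with at least 10 counts in every library, 4 in DESeq2, and 0 when only the groups compared were fitted or without A8, A10 and A16. For the departure from additivity it was 1, and 3, 4, 2 and 4 under upper quartile scaling, no filter, the count minimum and DESeq2, and 0 when only those groups were fitted or without A8, A10 and A16, where A9 stands alone and is assumed to vary like the other groups. AG221 against WT went from 2 to 4 with GC offsets and 1 without A8, A10 and A16, and ruxolitinib against WT from 3 to 6 when only its groups were fitted. Combined against vehicle went from 2 to 1 with the count minimum, which removed Gp1bb, and with only its groups fitted. Combined against AG221 went from 4 to 2 with only its groups fitted and to 0 without A8, A10 and A16, and combined against ruxolitinib from 1 to 2 under upper quartile scaling and DESeq2 and 0 with only its groups fitted. Beyond fewer libraries or genes in the fit, the cause was not tested.

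Leaving out single libraries gave 2 to 6 genes called for vehicle against WT, 1 to 3 for AG221 and 1 to 3 for ruxolitinib against WT, 0 to 4 for combined against WT, 0 to 3 for AG221 against vehicle, 0 to 0 for ruxolitinib against vehicle, 1 to 2 for combined against vehicle, 1 to 4 and 1 to 2 for combined against AG221 and ruxolitinib, and 0 to 4 for the departure. The lowest counts came without B30 in vehicle and ruxolitinib against WT, without A10, B30 or B31 in AG221 against WT, without B25 or B30 in combined against WT, and without A8, A10 or B25 in combined against AG221.

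None of the called values of the 9 genes turned direction under the alternatives run. Uncalled values turned in most comparisons, for example in AG221 against WT for Rab27b (-1.30 to 0.29, called without A9), Itgb3 (-0.86 to 0.10) and Gp1bb (-1.28 to 0.55) and in combined against AG221 for Gp9 (-0.43 to 0.71) and Treml1 (-0.36 to 0.59). Against vehicle the turns were Pf4 with AG221 (0.13) and combined (-0.071) and Gp1bb with AG221 (0.016) under upper quartile scaling, Gp1bb (0.65), Gp9 (0.011) and Treml1 (0.085) with AG221, Gp1bb with ruxolitinib (-0.017) and Pf4 with combined (-0.025) under GC offsets, and Gp1bb with AG221 (0.20) without A8, A10 and A16. With single libraries left out, turning ranges were -1.11 to 0.035 for Gp1bb and -0.19 to 1.04 for Ppbp in vehicle against WT. With AG221 they were -0.39 to 0.026 for Gp1bb and -0.16 to 0.027 for Pf4. With ruxolitinib they were -0.31 to 0.59 for Gp1bb, -0.43 to 0.95 for Ppbp and -0.29 to 0.044 for Vwf. With combined treatment they were -0.32 to 0.15 for Gp9, -0.34 to 0.33 for Pf4, -0.43 to 0.044 for Rab27b and -0.57 to 0.17 for Treml1.

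Scaling moved all genes as well. Upper quartile scaling moved the median log2 fold change of all genes from -0.01 to 0.18 in AG221 against vehicle, from 0.11 to -0.18 in combined against AG221 and from 0.04 to -0.16 in combined against WT, and GC offsets moved it from -0.09 to 0.09 in vehicle against WT. In vehicle against WT 46.3% of called genes were higher, 26.7% under upper quartile scaling and 60.0% with GC offsets. In combined against WT it was 50.3% and 15.9% under upper quartile scaling, in AG221 against vehicle 47.7% and 77.4%, and in AG221 against WT 43.8% and 57.1% with GC offsets. With 3 libraries a group, differences within the intervals given are not detectable.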
